A study of Mus musculus with 3 samples.

Results

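The Nrf2 antioxidant response was followed here in 10 of the 32285 genes of the count tables, namely Nfe2l2, Keap1, Sqstm1, Txn1, Txnrd1, Prdx1, Srxn1, Hmox1, Gclm and Nqo1. The genes were chosen by name, as the transcription factor, its sensor and an autophagy adaptor that binds the sensor, with 7 target genes. The choice was made with earlier results of these data known. All 10 had their identifier in the tables. None was used to sort cells into classes.

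Nrf2, the product of Nfe2l2, is a transcription factor that is held at a low level by Keap1, a sensor protein that carries reactive cysteines and presents Nrf2 to a ubiquitin ligase for destruction. When oxidants or electrophiles modify Keap1, or when p62 (Sqstm1) draws Keap1 away, Nrf2 builds up and binds antioxidant response elements next to genes for the thioredoxin system, glutathione synthesis, quinone reduction and heme breakdown. In macrophages the response is known for its part in handling heme and iron and in restraining inflammatory genes.

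The study asked how immune cells in peripheral blood (PB) change as FGFR1-driven leukemia grows, with attention to classical monocytes (cMono, Ly6C high) and nonclassical monocytes (ncMono, Ly6C low). In all, 3 groups of Balb/C mice of WT genotype were compared by scRNA-Seq, each with 1 library: naive mice, and mice engrafted with BBC2 cells and bled at D11 or D14. BBC2 is a single cell line of pro-B-like leukemia driven by the BCR-FGFR1 kinase, and its cells carry a GFP marker. The mice were young adult females, the naive group received no leukemia cells, and how many mice gave blood for each library was not given in the sources used here. Red cells were lysed and dead cells removed before all 3 libraries were made with 10x Genomics 3′ v3 reagents.

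The libraries held 5386 to 9337 barcodes and 30362408 to 65861863 unique molecular identifiers (UMIs, 1 for each captured mRNA molecule). After removal of barcodes under 200 genes or over 10% mitochondrial UMIs, 3811, 4567 and 4414 were left. These were 70.8%, 53.5% and 47.3% of the barcodes, and 763, 784 and 1980 barcodes were over the mitochondrial limit. Here and elsewhere, lists of 3 values run naive, D11, D14. Hemoglobin took 11.2%, 55.9% and 22.5% of all UMIs, and 12 to 18 barcodes were shared by each pair of libraries, and at most 1 of each such set fell in a class in both libraries. Cells were sorted by 8 marker genes per class, and a class needed at least 3 markers found and 2 more than any other class. The ncMono class held 119, 193 and 626 cells, cMono 146, 241 and 132, neutrophils 1341, 1619 and 1295, and leukemia cells 3, 97 and 691. All 8 ncMono markers were found in ncMono of each library, and their summed level was 4370, 4859 and 4264 CPM (UMIs of a gene per 1000000 UMIs). No class was given to 5.65% to 7.09% of the barcodes.

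Levels are CPM of the UMIs of all cells in 1 class and library. Brackets give 95% intervals that cover counting error only. With 1 library per condition no test was possible, and a difference between conditions cannot be told apart from one between libraries. A ratio between libraries is called higher or lower where it is at least 1.5-fold, its interval leaves out 1, and the gene has a mean of at least 10 CPM over both libraries.

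The sequences just before the start of 5 of these genes are shown because the factor acts through sites of this kind and because the RNA of each of the 5 was higher in monocytes of leukemic mice. They are the 250 bases before a RefSeq transcription start (GRCm38.p6), 5′ to 3′ on the strand of the gene, and capitals mark the core of the antioxidant response element, TGACNNNGC, read on either strand. Prdx1 lies on the plus strand (chr4:116685349-116685598), as do Gclm (chr3:122245307-122245556) and the second listed start of Txnrd1 (chr10:82858956-82859205). Nfe2l2 (chr2:75704664-75704913) and Txn1 (chr4:57956412-57956661) lie on the minus strand.
Prdx1: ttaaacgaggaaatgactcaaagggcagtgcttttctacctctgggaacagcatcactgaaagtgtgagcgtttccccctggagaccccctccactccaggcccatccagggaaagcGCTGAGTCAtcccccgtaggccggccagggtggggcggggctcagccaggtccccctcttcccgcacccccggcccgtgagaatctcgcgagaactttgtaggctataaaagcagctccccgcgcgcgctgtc
Gclm: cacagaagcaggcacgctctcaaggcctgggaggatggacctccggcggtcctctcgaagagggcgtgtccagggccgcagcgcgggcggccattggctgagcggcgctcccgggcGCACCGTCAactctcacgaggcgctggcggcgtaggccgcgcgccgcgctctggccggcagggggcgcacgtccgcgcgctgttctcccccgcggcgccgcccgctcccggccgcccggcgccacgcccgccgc
Nfe2l2: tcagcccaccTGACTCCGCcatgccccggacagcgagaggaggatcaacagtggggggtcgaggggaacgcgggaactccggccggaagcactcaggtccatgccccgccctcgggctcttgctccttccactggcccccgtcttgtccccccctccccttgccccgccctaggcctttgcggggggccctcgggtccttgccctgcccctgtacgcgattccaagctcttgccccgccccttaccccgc
Txnrd1: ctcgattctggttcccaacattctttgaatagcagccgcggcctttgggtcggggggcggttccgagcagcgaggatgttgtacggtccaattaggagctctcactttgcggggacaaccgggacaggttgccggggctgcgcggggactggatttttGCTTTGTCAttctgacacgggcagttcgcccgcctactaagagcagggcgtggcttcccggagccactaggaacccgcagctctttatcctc
Txn1: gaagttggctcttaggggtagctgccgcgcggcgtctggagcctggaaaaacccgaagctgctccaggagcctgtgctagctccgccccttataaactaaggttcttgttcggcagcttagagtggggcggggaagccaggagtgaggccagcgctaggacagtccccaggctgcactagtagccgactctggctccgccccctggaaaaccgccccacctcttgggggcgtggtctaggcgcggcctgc
The core began at base -133 in Prdx1, -134 in Gclm, -240 in Nfe2l2 and -92 in Txnrd1, counted from the start. In Prdx1 the match GCTGAGTCA overlaps an AP-1 site, TGAGTCA, at -131. Windows of 300 bases, from 250 before to 50 after a start, were listed for all of the 10 genes but Hmox1, 11 windows in all. The core was found in 5 of the 11, the fifth being that of Srxn1 at base 29 after the start, and in 12.4% of 32851 windows of the same length. Most of the 10 genes were chosen as targets of the factor, so this share is a description and not a test. AP-1 sites (TGACTCA or TGAGTCA) were found in Prdx1 and Srxn1 and in 5.2% of all windows. The Txn1 window held neither motif, and neither did the windows of the other listed starts of Txnrd1.

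In ncMono, 6 of the 8 genes with enough counts were called higher at D14 than in naive mice, at 1.74- to 5.40-fold, and 5 of 8 at D11. Hmox1 and Txn1 had the highest ratios, followed by Txnrd1, Nfe2l2, Gclm and Prdx1. Among all genes of ncMono, 5.67% of 7950 were called higher at D11 and 7.81% of 8026 at D14. None of the 8 was called lower, where 7.77% and 9.13% of all genes were. From D11 to D14, 4 of the 8 were called higher and 0 lower, against 6.37% and 4.67% of all genes. The median log2 ratio of the 8 genes was 0.68 at D11 and 0.97 at D14, against -0.04 and 0.00 over all genes. The 2 days share the naive library, so their ratios are not independent. The genes were chosen with earlier results of these data known, so the counts describe the list and do not test it.

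Nfe2l2 (chromosome 2, 75675513 to 75704641), the gene of the factor, had 193 [167 to 223] CPM in naive ncMono, 304 [278 to 331] at D11 and 409 [394 to 425] at D14. The 3 intervals did not overlap, and relative to naive mice the level was 1.57-fold [1.33 to 1.87] by D11 and 2.12-fold [1.83 to 2.46] by D14. Keap1 (chromosome 9, 21229730 to 21239361), the sensor, had 25.2 [16.3 to 37.1], 38.4 [29.6 to 48.9] and 31.4 [27.2 to 36.0] CPM. These intervals overlapped, and neither its D11 ratio of 1.52 [0.95 to 2.52] nor that of 1.25 [0.82 to 1.97] at D14 was called. Sqstm1 (chromosome 11, 50199366 to 50210827), the p62 autophagy adaptor and also a target of Nrf2, had 139, 150 and 135 CPM. Its D14 ratio of 0.97 [0.81 to 1.17] leaves room for no more than a 1.17-fold rise on counting error.

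Of the thioredoxin system, Txn1 (chromosome 4, 57943373 to 57956411), the small protein that reduces oxidized cysteines, had 179 [154 to 207] CPM in naive ncMono, 428 [398 to 461] at D11 and 922 [899 to 946] at D14. The level went up at both steps, by 2.39-fold [2.03 to 2.83] from naive to D11 and by 2.15-fold [1.99 to 2.33] from D11 to D14, and the ratio of D14 to naive was 5.15 [4.44 to 6.01]. One annotated pseudogene bears the name of Txn1, and reads of the gene could be split with it. Txnrd1 (chromosome 10, 82833951 to 82897712), the reductase that recharges thioredoxin with NADPH, had 39.2, 68.5 and 104 CPM, with ratios of 1.74 [1.20 to 2.58] and 2.66 [1.92 to 3.77]. Prdx1 (chromosome 4, 116685544 to 116700822), a peroxidase that is turned over by thioredoxin, had 198, 322 and 346 CPM. Relative to naive mice Prdx1 was at 1.62 [1.38 to 1.92] by D11 and 1.74 [1.51 to 2.03] by D14, so that most of the difference from naive was present at D11 and the step from D11 to D14, 1.07 [0.98 to 1.18], was not called. Srxn1 (chromosome 2, 152105516 to 152111376), which repairs overoxidized peroxiredoxins, was too low to compare, with 2, 4 and 32 UMIs and a D14 ratio of 2.45 [0.62 to 21.1].

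Hmox1 (chromosome 8, 75093621 to 75100589), the heme oxygenase that opens the heme ring and frees iron, had 37.2 [26.2 to 51.3] CPM in naive ncMono, 71.4 [59.3 to 85.3] at D11 and 201 [190 to 212] at D14. It was higher than in naive mice on both days, by 1.92-fold [1.32 to 2.85] and then 5.40-fold [3.89 to 7.70]. The D11 value rests on few cells: 1 cell held 37 of the 121 Hmox1 UMIs, 4 cells held 54 (44.6%), and the other 189 were at 40.4 CPM. Gclm (chromosome 3, 122245557 to 122270732), the modifier subunit of the enzyme that limits glutathione synthesis, had 19.1, 22.4 and 34.6 CPM. It was called at D14 only, at 1.81 [1.13 to 3.07], after a D11 ratio of 1.17 [0.66 to 2.15], and its ratio of D14 to D11 was 1.54 [1.09 to 2.24]. Nqo1 (chromosome 8, 107388225 to 107403206), a quinone reductase often used as a readout of Nrf2, had 0, 1 and 27 UMIs in ncMono. Its D14 level of 4.16 CPM [2.74 to 6.05] lies above what 3 UMIs would give in the naive sum (3.02 CPM). The naive interval reaches 3.71 CPM, so the intervals of the levels overlap. The interval of the D14 ratio over naive narrowly leaves out 1. With 0 naive UMIs that ratio has no value, and at a mean under 10 CPM it was not called.

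**Figure D1:**
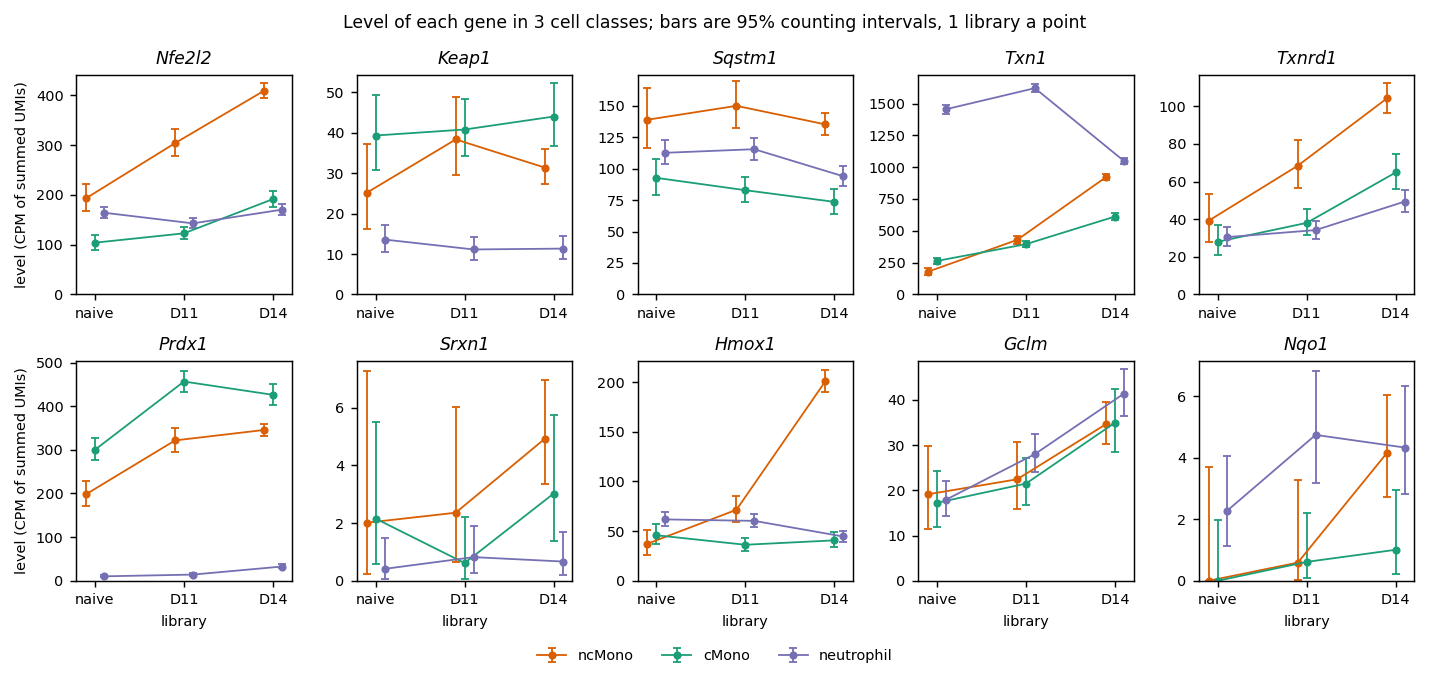
Level of each of the 10 genes (vertical axis, CPM of summed UMIs, from 0) in the naive, D11 and D14 libraries (horizontal axis) for ncMono (orange), cMono (green) and neutrophils (purple), where each point is 1 library and bars are 95% counting intervals. In ncMono, Txn1 goes from 179 to 922 CPM and Hmox1 from 37.2 to 201 CPM, while Keap1 and Sqstm1 keep overlapping intervals.

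**Figure D2:**
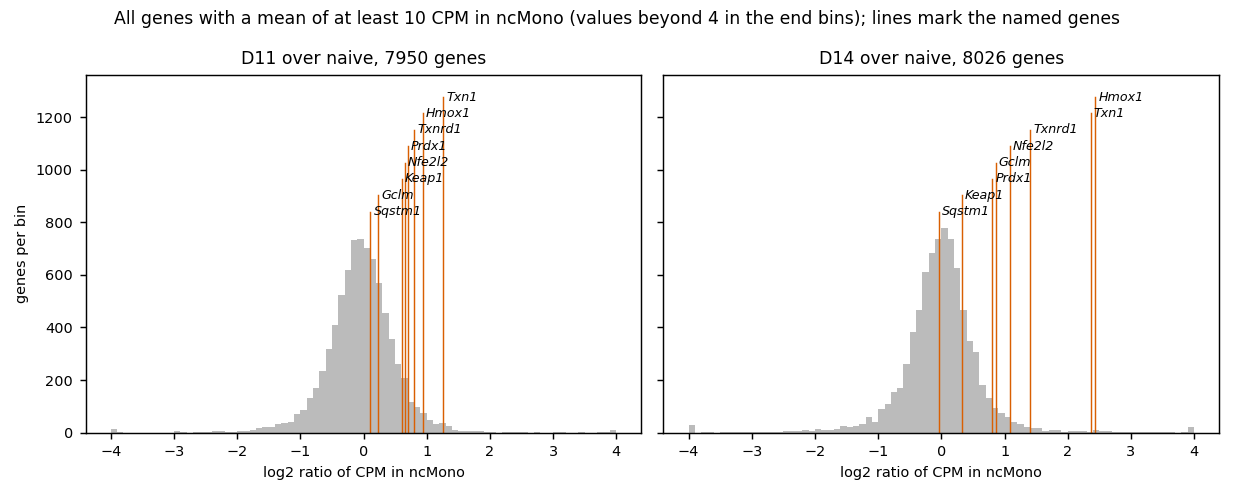
Number of genes (vertical axis) by log2 ratio over naive in ncMono (horizontal axis), for the 7950 genes at D11 and the 8026 genes at D14 with a mean of at least 10 CPM, with values beyond 4 in the end bins. Lines mark the 8 named genes with enough counts, which at D14 run from Sqstm1 at -0.04 to Hmox1 at 2.43, around a median of 0.97.

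Several other measures of the ncMono class are given beside these ratios, and not all of them moved with the ratios. The heat shock genes Hspa1a and Hspa1b went from 5.03 to 509 CPM and from 7.04 to 701 CPM between naive and D14, and 6 of 6 heat shock genes were called higher at D11 and 4 of 6 at D14, where 5.67% and 7.81% of all genes were. In ncMono with neither an Hspa1a nor an Hspa1b UMI, the D14 ratios were as large or larger, at 7.61 for Hmox1, 5.88 for Txn1, 3.13 for Txnrd1, 2.19 for Nfe2l2, 2.11 for Gclm and 1.97 for Prdx1. These cells are a selected part of the class, picked by genes whose own level differed greatly between naive and D14. The 2 libraries are thus not cut alike, and a link to heat shock genes was not tested. Of 6 immediate early genes with enough counts, 1 was called higher and 1 lower at D11, where 5.67% and 7.77% of all genes were. At D14, 0 were called higher and 2 lower, where 7.81% and 9.13% of all genes were. Fos (1.05) and Jun (1.09) were not called at D14, and Atf3 was called lower (0.27). The summed level of the 8 leukemia markers in ncMono was 15.1, 2.36 and 74.8 CPM, with 5, 5 and 2 of the 8 at 0, against 1961 CPM in leukemia cells at D14. That of the cMono markers was 1043, 960 and 313 CPM, with 1, 0 and 0 at 0. The median mitochondrial share of ncMono was 1.51%, 1.58% and 1.92%. Hemoglobin took 0.0173%, 0.281% and 0.376% of the UMIs of ncMono, and barcodes set apart for hemoglobin held 92.6, 107 and 93.9 CPM of Gclm and 3.56, 3.60 and 5.11 CPM of Hmox1. The part of any of these in the ratios was not tested.

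The genes differed in how their UMIs were spread over cells. Txn1 was broad: the share of ncMono with a Txn1 UMI was 59.7%, 86.0% and 95.8%, and 15.2%, 30.3% and 56.2% after each cell was thinned to 1000 UMIs. In D14 ncMono, the 63 cells with most UMIs of a gene held 26.8% of the Txn1 UMIs and 28.7% of those of Nfe2l2. Hmox1 was narrow, since 63 cells held 64.8% of its UMIs and 1 cell had 62 of them. Hmox1 UMIs were found in 26.1%, 28.0% and 52.4% of ncMono, and in 3.23%, 4.98% and 13.7% after thinning. For comparison, 1.30% of D14 leukemia cells held one, at a median of 31681 UMIs per cell against 9278 in D14 ncMono.

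Cells rich in Hmox1 were therefore described on their own, by a limit of at least 5 Hmox1 UMIs that was chosen after the values were seen. No naive ncMono, 4 D11 cells and 65 D14 cells (10.4% of the class) reached it. The limit cuts a continuous range, as 13 D14 cells had 5 Hmox1 UMIs and 20 had 4. The 65 cells held 65.6% of the Hmox1 UMIs of the class and 35.1% of those of Gclm. Relative to the 561 other D14 ncMono, Gclm was at 112 against 25.2 CPM, a ratio of 4.46 [3.35 to 5.91], and Txnrd1 at 206 against 91.8 CPM, a ratio of 2.25 [1.86 to 2.71]. The Gclm level of the 561 cells lies inside the interval of naive ncMono, 19.1 [11.5 to 29.9] CPM. Their Txnrd1 level lies above that of naive ncMono, 39.2 [27.9 to 53.6] CPM. Prdx1 had a ratio of 1.85 [1.66 to 2.06], and Srxn1 and Nqo1, on 12 and 13 UMIs, ratios of 4.95 [2.21 to 10.6] and 7.66 [3.31 to 17.6]. The genes of the factor, its sensor, p62 and thioredoxin had ratios below 1.5 between these cells and the rest. The share of all genes with ratios of at least 1.5 between these cells and the rest was not measured. Whether the higher genes stand out from other genes is thus not known. Nfe2l2 had a ratio of 0.92 [0.81 to 1.05], Keap1 of 1.48 [0.97 to 2.18], Sqstm1 of 1.31 [1.07 to 1.58] and Txn1 of 1.14 [1.06 to 1.23].

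With a limit of 3 Hmox1 UMIs, which 115 D14 cells reached, Gclm had a ratio of 3.0, Nqo1 of 3.9, Txnrd1 of 1.77, Prdx1 of 1.65 and Txn1 of 1.0. In the 4 D11 cells with at least 5, Gclm was at 242 against 17.5 CPM and Txnrd1 at 376 against 61.5 CPM, on 9 and 14 UMIs. A single D11 ncMono had 9 Gclm UMIs, so that all 9 may come from 1 cell. In the 4 cells Txn1 was at 134 against 435 CPM (0.31 [0.10 to 0.72]), and Sqstm1 had a ratio of 0.71 [0.19 to 1.85]. With 4 cells, picked by Hmox1, these values are too few to set against those of D14. Median UMIs per cell were 10691 in the Hmox1-rich D14 cells and 9167 in the others, and hemoglobin took 0.0851% and 0.411% of their UMIs. Fth1 and Ftl1, the heavy and light chains of the iron store ferritin, had ratios of 2.01 [1.95 to 2.08] and 1.69 [1.63 to 1.75] in the Hmox1-rich cells.

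Spic, the transcription factor of heme-responsive, iron-recycling macrophages, went from 9.06 to 17.7 and 54.9 CPM in ncMono, and was called higher at D14 at 6.07 [3.16 to 13.4]. Cd163, C1qa, C1qb, C1qc and Cd5l, further genes of such macrophages, had no UMI in ncMono of any library. Of the list of 8 such genes, which also holds Vcam1 and the iron exporter Slc40a1, 2 had enough counts at D11, Spic and Slc40a1. Both had D11 ratios above 1 and neither was called. At D14 only Spic had enough counts. The naive level of Spic, 9.06 CPM, was under the limit of 10 CPM, so Spic could have enough counts only with a ratio above 1. The direction of its ratio was thus fixed by the limit on both days. Spic was higher in the Hmox1-rich cells, at 205 against 36.8 CPM. The 166 D14 ncMono with a Spic UMI (26.5%) had 411 CPM of Hmox1 against 116 CPM in those without, a ratio of 3.55 [3.18 to 3.97], and held 58.9% of its UMIs. Gclm had a ratio of 2.20 [1.68 to 2.89] between these cells. The share of all genes with such ratios between cells with and without a Spic UMI was not measured. The cells were not matched for depth, so whether Hmox1 and Gclm stand out is not known. Without cells with a Spic UMI, the ratio of D14 to naive fell to 2.97 [2.11 to 4.30] for Hmox1, that of Gclm to 1.44 [0.85 to 2.60], which was no longer called, and that of Txn1 was 5.02 [4.28 to 5.91]. At D11 the Hmox1 ratio without them was 1.14 [0.75 to 1.77] and the Nfe2l2 ratio 1.38 [1.16 to 1.64], neither of which was called. The cells left out were picked by a gene whose own level differed between libraries. The libraries are thus not cut alike, and a link to Spic was not tested. In naive ncMono the 9 cells with a Spic UMI were low in both genes, at 20.5 against 39.1 CPM for Hmox1 on 2 UMIs and 30.7 against 211 CPM for Nfe2l2 on 3 UMIs, so that leaving them out raised the naive level. At D11 the 22 cells with a Spic UMI had 257 against 44.6 CPM of Hmox1 and 397 against 290.5 CPM of Nfe2l2.

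**Figure D3:**
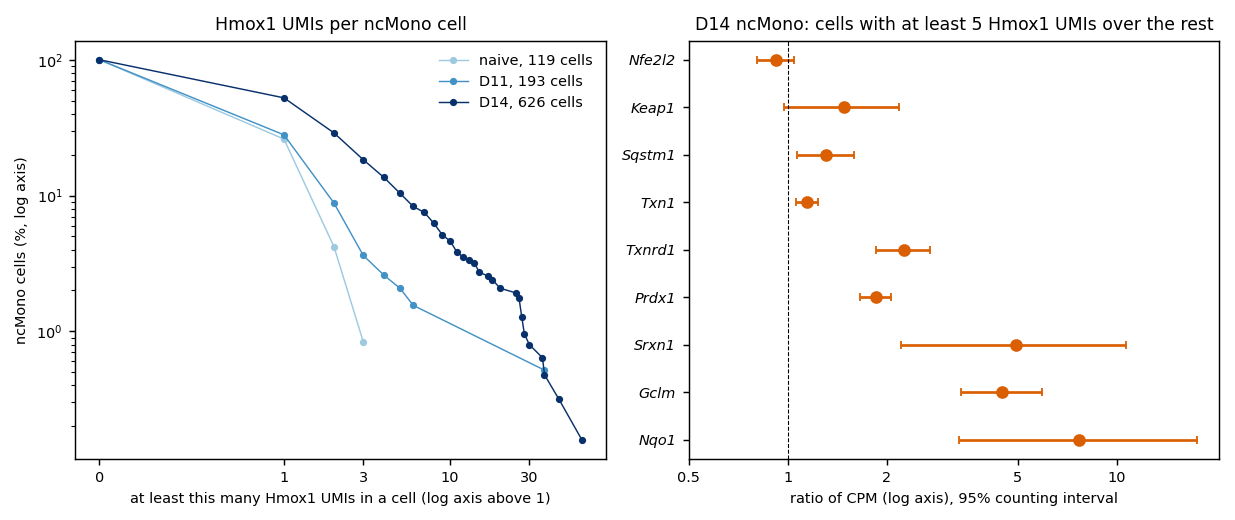
Left, share of ncMono (vertical log axis, percent) with at least a given number of Hmox1 UMIs (horizontal axis, log above 1) in each library, where no naive cell has more than 3 and 10.4% of D14 cells have 5 or more. Right, ratio of CPM (horizontal log axis) of the other 9 genes between the 65 D14 ncMono with at least 5 Hmox1 UMIs and the 561 others, with 95% counting intervals, from 0.92 for Nfe2l2 to 7.66 for Nqo1.

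In cMono, 4 of 8 genes were called higher at D14 and 2 of 8 at D11, against 13.2% of all 7954 genes at D14 and 4.65% of 7788 at D11. None of the 8 was called lower on either day, where 4.69% (D11) and 10.2% (D14) of all genes were. From D11 to D14, 4 of 8 were called higher and 0 lower, where 8.41% and 6.26% of all genes were. Txn1 had 263, 395 and 612 CPM, and its D14 ratio was 2.32 [2.10 to 2.57]. Txnrd1 (28.0, 38.1 and 64.9 CPM) had one of 2.31 [1.70 to 3.21], Gclm (17.2, 21.5 and 35 CPM) of 2.03 [1.35 to 3.11] and Nfe2l2 (104, 123 and 192 CPM) of 1.84 [1.56 to 2.18]. Prdx1, at 300, 457 and 426 CPM, was called at D11 (1.52 [1.38 to 1.68]) and stayed under the limit at D14 (1.42 [1.28 to 1.57]). Txn1 was at the limit at D11, with 1.5 [1.35 to 1.67]. Hmox1 had 45.8, 36.2 and 40.7 CPM, with overlapping intervals and a D14 ratio of 0.89 [0.67 to 1.19]. Keap1 and Sqstm1 were not called.

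The cMono class of D14 differed from naive in other ways that move with these ratios. Its median was 20751 UMIs per cell against 12622 in naive mice, and the neutrophil-abundant transcripts S100a8, S100a9 and Lcn2 were 44.3-, 27.1- and 265-fold higher in it. Its median mitochondrial share was 3.39% against 2.25% in naive mice. The summed neutrophil markers, at 338, 341 and 363 CPM, differed little. The part of these in the ratios was not tested.

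Between the monocyte classes, Nfe2l2 was higher in ncMono than in cMono of every library, by 1.86-fold [1.51 to 2.28] in naive mice, 2.48-fold [2.17 to 2.83] at D11 and 2.14-fold [1.95 to 2.34] at D14. For Txn1 the order turned, from 0.68 [0.57 to 0.81] in naive mice to 1.51 [1.43 to 1.59] at D14, and for Hmox1 the ratio went from 0.81 [0.54 to 1.21] to 4.94 [4.10 to 6.0]. In all, 1 of 8 genes was called higher in ncMono in naive mice, 4 at D11 and 5 at D14, where 21.4%, 18.7% and 22.3% of all genes were. Prdx1 was called lower in ncMono of naive mice, at 0.66 [0.56 to 0.78], where 14.6% of all genes were, and had ratios of 0.70 [0.64 to 0.78] and 0.81 [0.76 to 0.87] at D11 and D14 that were not called.

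Neutrophils had another pattern. Of 8 genes, 1 was called higher at D11, where 5.63% of all genes were, and 3 at D14, where 14.6% were. None was called lower, where 9.85% (D11) and 24.5% (D14) of all genes were. Gclm had 17.9, 28.0 and 41.4 CPM, with ratios of 1.56 [1.20 to 2.05] and 2.31 [1.80 to 2.98]. Txnrd1 had 30.5, 34.2 and 49.4 CPM and a D14 ratio of 1.62 [1.33 to 1.99]. Prdx1 was low, at 10.1, 14.1 and 32.5 CPM, and its D14 ratio of 3.23 [2.35 to 4.51] was 1.93 [1.32 to 2.86] when the likely doublets were removed. Txn1 was higher in neutrophils than in any other class of each library, with 1455, 1621 and 1049 CPM, and its D14 ratio of 0.72 [0.70 to 0.75] left out 1 without reaching the limit for a lower call. Hmox1 (61.7, 60.3 and 44.5 CPM) also had a ratio of 0.72 [0.61 to 0.85].

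The make-up of the neutrophil class differed between libraries. The median mitochondrial share of its cells was 0.201%, 0.246% and 0.927%, and its part in the ratios was not tested. Ltf, Camp and Ngp, granule genes of immature neutrophils, were 12.9-, 5.97- and 12.5-fold higher at D14, and cells with at least 5 UMIs of the 3 genes together made up 1.27%, 12.2% and 36.9% of the class. Without them the D14 ratio was 3.93 for Prdx1, 2.18 for Gclm and 1.74 for Txnrd1, all called, and 0.75 [0.71 to 0.78] for Txn1 and 0.91 [0.74 to 1.11] for Hmox1. At D11 the ratio of Gclm without them, 1.30 [0.96 to 1.75], was not called. The leukemia markers summed to 10.9, 21.8 and 137 CPM in neutrophils, with 5, 1 and 2 of the 8 at 0, and their part in the Prdx1 ratio was not tested.

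**Figure D4:**
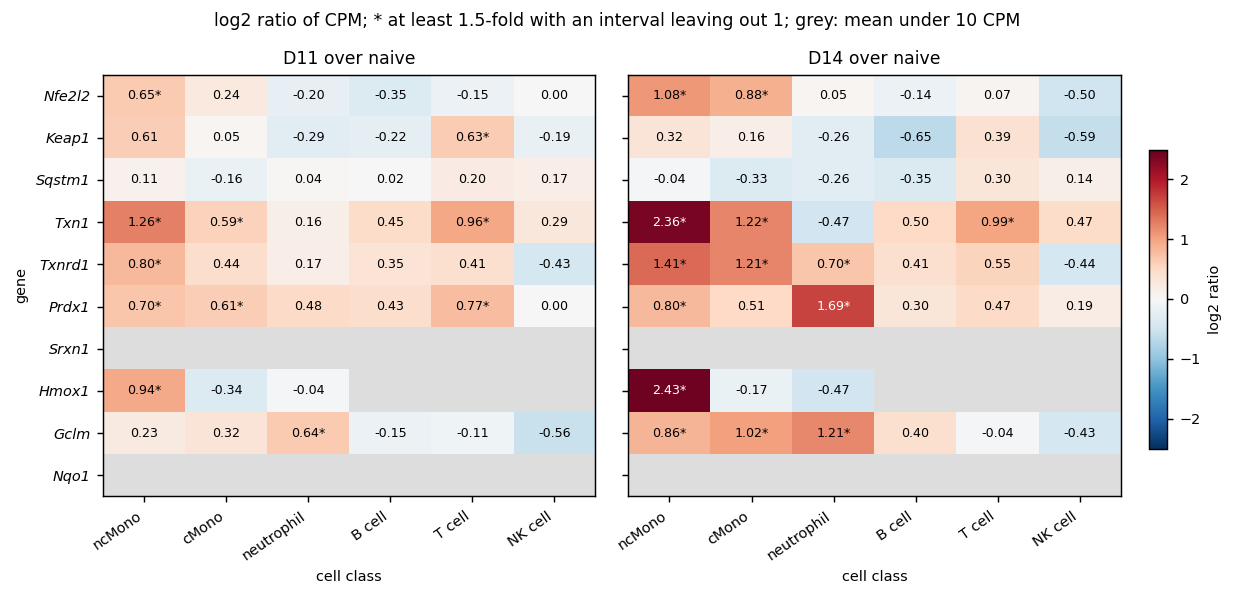
Log2 ratio of CPM over naive (color, from -2.5 to 2.5, with the value printed) of the 10 genes (rows) in 6 cell classes (columns) at D11 and D14, where an asterisk marks a ratio of at least 1.5-fold with an interval that leaves out 1 and grey a mean under 10 CPM. At D14 ncMono carry 6 asterisks, cMono 4, neutrophils 3, T cells 1, and B and NK cells 0.

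Among the lymphoid classes, calls were made in T cells and not in B or NK cells. Only the D11 count in T cells was well above the share of all genes called, and the other counts were near it. In T cells, 3 of 7 genes with enough counts were called higher at D11 and 1 of 7 at D14, where 10.4% and 13.7% of all genes were. None was called lower, where 4.6% and 5.33% of all genes were. Txn1 had 96.3, 188 and 192 CPM, with ratios of 1.95 [1.73 to 2.19] and 1.99 [1.69 to 2.33]. A single D14 cell held 55 of its 179 UMIs there, and the ratio was 1.52 [1.25 to 1.83] without the likely doublets. Prdx1 (1.70 [1.53 to 1.89]) and Keap1 (1.55 [1.19 to 1.99]) were called at D11. The Keap1 ratio lies close to the limit of 1.5, and its call depends on the scaling. No gene of 7 was called in B cells or NK cells on either day, where 4.95% and 7.16% of all B-cell genes and 3.43% and 7.52% of all NK-cell genes were called higher. The shares of all genes called lower on the 2 days were 4.09% and 5.43% in B cells and 4.06% and 4.68% in NK cells. These classes were small at D14, with 37 B cells and 63 NK cells, so that a ratio such as that of Txn1 in B cells, 1.42 [0.85 to 2.26], leaves room for a change. With looser gates (2 markers, margin of 1) it was 4.28, and Prdx1 in B cells 2.49, both called at D14. Those gates also raised the share of all B-cell genes called higher at D14, to 15.6% of 8170. The part of other cells let in by the looser gates was not tested. Hmox1 had 0 to 12 UMIs, at most 1.35 CPM, in the 3 lymphoid classes of each library. At D14 it had 0 in all 3, where 3 UMIs would be 10.8 CPM in B cells, 3.21 in T cells and 7.44 in NK cells, and where the upper ends of the intervals are 13.3, 3.95 and 9.15 CPM.

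Leukemia cells were gated by markers of early B cells, with no check of GFP or of the fusion transcript, and 3 cells of the naive library passed the gate too. Growth in the host and the line itself cannot be told apart in their levels. From D11 to D14 no gene of 7 was called, where 8.36% of all genes were called higher and 2.89% lower. Txn1 had 650 and 657 CPM, Prdx1 579 and 479, Txnrd1 133 and 119, Gclm 64.9 and 58.4, Keap1 44.0 and 54.5, Sqstm1 38.2 and 39.0 and Nfe2l2 25.8 and 31.1. Relative to B cells of D11, Txn1 was higher by 8.89-fold [7.32 to 10.9], Txnrd1 by 4.79-fold, Gclm by 4.36-fold, Prdx1 by 3.94-fold and Keap1 by 1.81-fold, that is 5 of 7 genes where 36.9% of all genes were higher. Nfe2l2 (0.51 [0.37 to 0.72]) and Sqstm1 (0.43 [0.33 to 0.56]) were lower, as were 28.6% of all genes. Srxn1 had no UMI in 97 and 691 leukemia cells, where 3 UMIs would be 0.978 and 0.133 CPM and the intervals reach 1.20 and 0.163 CPM, and Hmox1 had 6 and 9 UMIs.

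Across the classes at D14, Nfe2l2 was highest in ncMono (409 CPM), then in cMono (192) and neutrophils (170), whose intervals overlap, and lowest in leukemia cells (31.1). Hmox1 was highest in ncMono (201), then in neutrophils (44.5) and cMono (40.7), whose intervals overlap. Prdx1 was highest in leukemia cells (479) and cMono (426) and lowest in neutrophils (32.5). Txn1 was highest in neutrophils (1049), followed by ncMono (922), leukemia cells (657) and cMono (612), with no overlap between neighbours in this part of the order.

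**Figure D5:**
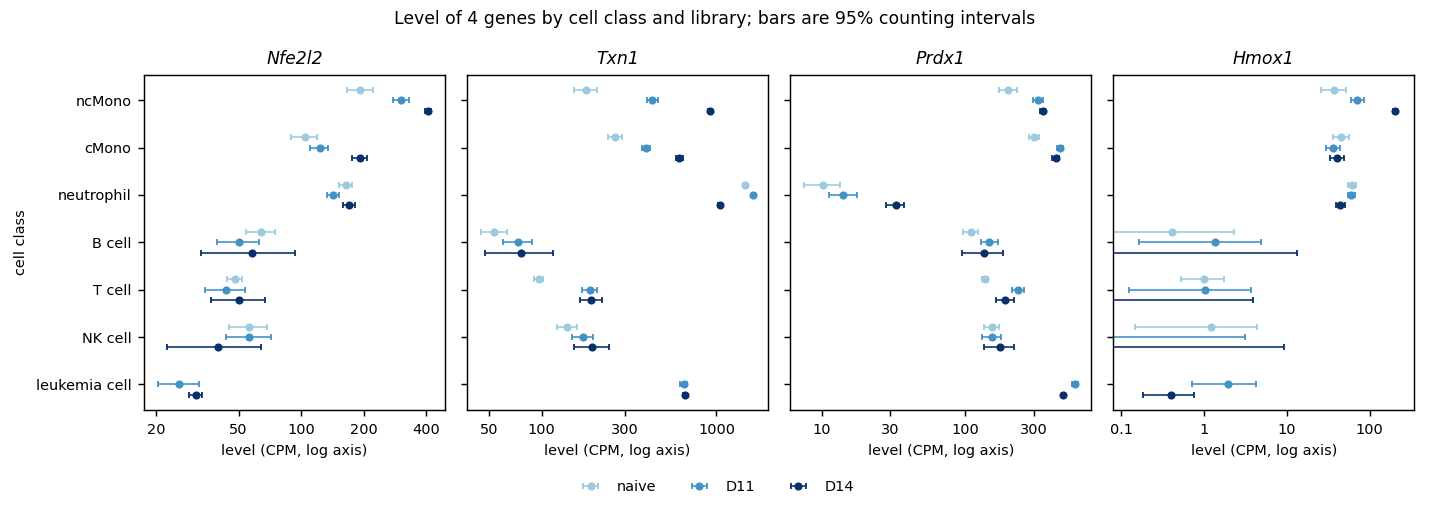
Level (horizontal log axis, CPM) of Nfe2l2, Txn1, Prdx1 and Hmox1 in 7 cell classes (rows) of the naive (light), D11 (middle) and D14 (dark) libraries, with 95% counting intervals, and with no naive value for leukemia cells and no point for a level of 0. ncMono have the highest Nfe2l2 of each library, with an interval that overlaps that of neutrophils in naive mice, and Hmox1 is near 0 outside the monocytes and neutrophils.

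The other genes of the pathway, a list of 55 that was made with earlier results of these data known, gave 12 of 46 called higher in ncMono at D11 and 13 of 45 at D14, where 5.67% and 7.81% of all genes were. None was called lower on either day, where 7.77% and 9.13% of all genes were. Their median log2 ratio was 0.20 at D11 and 0.30 at D14. The highest at D14 were Sod2, the mitochondrial superoxide dismutase, at 4.36 [3.19 to 6.10], Abcc1, an exporter of glutathione conjugates, at 3.49 [2.15 to 6.06], and Fth1, ferritin heavy chain, at 3.41 [3.21 to 3.63]. They were followed by Gstm1 (2.28), Txn2 (2.0), Cat (1.87), Mgst1 (1.69) and Gsr (1.64), the last being glutathione reductase. By role, 3 of 9 glutathione genes, 2 of 7 thioredoxin and peroxiredoxin genes, 2 of 5 for NADPH supply, 2 of 5 for iron and heme, 2 of 3 for superoxide and peroxide and 2 of 3 exporters were called higher at D14. None of 6 regulators and none of 5 autophagy adaptors was. Bach1, a repressor of Hmox1 that competes with Nrf2, had 241, 247 and 216 CPM, and Gclc, the catalytic partner of Gclm, had 49.3, 38.4 and 56.8 CPM. Slc7a11, the cystine importer, was called at D11 (2.83 [1.51 to 5.80]) and had 17.4 CPM at D14.

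In cMono, 9 of 44 genes of the list were called higher at D14 and 5 lower, where 13.2% and 10.2% of all genes were, so that the lower count is near the share over all genes. The higher ones were led by Tkt (2.07), Sod2 (2.01), Nqo2 (1.78), Abcc5 (1.77) and Mafg (1.76), a partner of Nrf2 on DNA. The lower ones were Blvrb (0.44), biliverdin reductase B, Txnip (0.46), an inhibitor of thioredoxin, Txnrd2 (0.52), Cbr3 (0.55) and Gstm1 (0.61). In neutrophils, 8 of 35 were called higher and 11 lower at D14, where 14.6% and 24.5% of all genes were. The highest were Tkt (2.64), Abcc5 (2.63) and Mafg (2.30), and the lowest were Gss (0.22), a glutathione synthase, the iron exporter Slc40a1 (0.38) and Slc7a11 (0.42). Gstm1 was thus called higher in ncMono and lower in cMono, and Fth1, called in ncMono, had 1492, 1801 and 1717 CPM in cMono.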

How the data were processed

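PB leukocytes of 3 libraries were measured by scRNA-Seq. Reads were aligned and counted by the authors in Cell Ranger, and the deposited values are raw UMI counts for called barcodes, with no normalization. The processing notes name version 7.1.0 and build mm10, the matrix headers name 5.0.1, and which one made the tables was not settled. Positions are from GENCODE vM21 (GRCm38). The depth was 30362408 to 65861863 UMIs per library, and the ncMono sums were 993825, 1694525 and 6496989 UMIs, so that 3 UMIs correspond to 3.02, 1.77 and 0.462 CPM.

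Barcodes were filtered and gated by markers as described with the results, with barcodes of at least 20% hemoglobin UMIs set apart first and a Cd79a UMI required of leukemia cells. Doublets were kept, and removing the 116, 167 and 156 barcodes with the highest Scrublet scores (scanpy 1.11.5) was an alternative. UMIs were summed by class and library. Levels have exact Poisson intervals, ratios exact conditional binomial intervals and shares of cells exact binomial ones (scipy 1.17.1), all for counting error only. Cells of a library are not replicates, and UMIs of 1 cell are not independent, so these intervals are too narrow. Thinned shares are the expected share at 1000 UMIs per cell, leaving out shallower cells. Calculations were tested on simulated counts and simulated cells. The 10 genes are all named. Of the pathway list, those at least 1.5-fold higher or lower in a monocyte class at D14 were counted, and up to 8 per direction and class were eligible to be named. The other pathway genes given here, those of neutrophils, the D11 value of Slc7a11 and the limits on Hmox1, Spic and granule-gene UMIs were chosen after their values were seen. The genes and lists were chosen with earlier results of these data known. Alternatives changed the filters, gates, doublets, scaling (TMM of edgeR 4.0.16, size factors of DESeq2 1.42.0 in R 4.3.3, CPM without ribosomal, mitochondrial and hemoglobin genes), averaging and low-count limit.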

Additional observations from a re-analysis of the deposited data

Results flagged for a closer look

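Hmox1 and Txn1 had D14 ratios over naive above 1 in ncMono and below 1 in neutrophils, where neither reached the limit for a lower call. Among all neutrophil genes, 24.5% were called lower at D14, and the median log2 ratio was -0.19. The D14 ratio over naive of Hmox1 was 5.40 in ncMono and 0.721 in neutrophils, and that of Txn1 was 5.15 in ncMono and 0.721 in neutrophils, with each of the 4 intervals leaving out 1. With 1 library per condition, the difference between the classes was not tested. In neutrophils with fewer than 5 UMIs of Ltf, Camp and Ngp, the ratio was 0.91 [0.74 to 1.11] for Hmox1 and 0.75 [0.71 to 0.78] for Txn1.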

How the results depend on the processing

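No paired analysis was possible because each condition had 1 library, and for the same reason no replicate could be left out. In ncMono, the counts of genes called higher stayed within 1.5 times of 5 at D11 and 6 at D14 under all alternatives run. The genes behind the counts were not the same throughout. At D11 Hmox1 was called in 10 of 12 settings, with ratios down to 1.14, and Nfe2l2 in 11 of 12, down to 1.38. At D14 Gclm was called in 11 of 12, with ratios down to 1.44. Over the 9 settings that kept the limit of 10 CPM, 846 of 873 ratios of single genes moved by less than their 95% counting interval and 27 moved by more, none of them with a called direction reversed. In cMono at D11 the count of 2 was 1 with all deposited barcodes, with either looser or stricter gates, with doublets removed, with CPM lacking ribosomal, mitochondrial and hemoglobin genes, with DESeq2 size factors and with the mean of per-cell CPM, each time through Txn1, which lies at the limit of 1.5. Keap1 in ncMono at D11 ranged from 1.29 to 1.85 and was called in 5 of 12 settings. In neutrophils at D11 the count of 1 was 2 with stricter gates, doublets removed, TMM, DESeq2 size factors or no filter on low values, and 0 without the granule-rich cells. With stricter gates it was 1 in B cells at D11 and 2 in T cells at D14, against 0 and 1, where 4.94% and 13.5% of all genes were called. With looser gates it was 2 in B cells at D14, against 0, where 15.6% of all genes were called. The ratios there were 4.28 for Txn1 and 2.49 for Prdx1. In leukemia cells it was 1 with the mean of per-cell CPM, against 0, through Keap1 at 1.51. With a limit of 50 CPM, which leaves 4 genes in cMono at D14 and 4 in neutrophils on each day, it was 2 in cMono at D14, and 0 in neutrophils at D11 and D14, against 4, 1 and 3. The median log2 ratio of the 8 genes in neutrophils at D14, -0.10, turned to 0.040 with TMM, 0.052 with DESeq2 size factors, 0.11 with the mean of per-cell CPM, 0.37 with no filter and 0.20 without granule-rich cells. The median over all genes there was -0.19, so that -0.10 lies above it. In the same order of settings it was -0.046, -0.034, -0.15, -0.20 and -0.11. TMM and DESeq2 size factors moved the median of all genes in neutrophils by 0.15 and 0.15 at D11 and by 0.15 and 0.16 at D14, and in T cells by -0.12 (TMM, D11), -0.17 (TMM, D14) and -0.13 (DESeq2, D14). With TMM or DESeq2 size factors the D11 ratio of Keap1 in T cells was under 1.5 and not called. The settings without Spic, Hspa1a or Hspa1b or granule-rich cells were chosen after seeing the data. Srxn1 and Nqo1 were under 10 CPM in each class, so that the limit of 10 CPM kept them from a call. In neutrophils Nqo1 had 2.26 [1.13 to 4.05], 4.75 [3.18 to 6.82] and 4.34 [2.83 to 6.35] CPM.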
